A study of Homo sapiens with 27 samples.

Results

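ARNT-knockout clone B was set against parental Panc1 cells in normoxia. Panc1 is a long-established cell line from a human pancreatic ductal adenocarcinoma. The comparison covers every gene in the count table of 6 libraries out of 27 in the series. The tested cells were 3 libraries of clone B, 1 of a pair of clones in which ARNT was knocked out with CRISPR-Cas9. They were set against 3 libraries of parental cells without the knockout. Both groups were kept for 48 hours at 20% oxygen in regular medium, which is DMEM with 10% serum and 1% penicillin and streptomycin. The libraries were taken by their labels (genotype, oxygen and medium). Clone B is a single clone, so the loss of ARNT and any other feature of that clone cannot be told apart in this comparison. Where a value of another group is given, it comes from clone A in normoxia, or from clone B and parental cells at 1% oxygen in the same medium for 48 hours, with 3 libraries each. The series as a whole asks how ARNT bears on the response of these cells to low oxygen, and this comparison asks what separates 1 knockout clone from parental cells when oxygen is plentiful.

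ARNT, also called HIF1B, is a transcription factor of the bHLH-PAS family that works in pairs. With HIF1A or EPAS1, whose proteins are held low by prolyl hydroxylation when oxygen is plentiful, it forms the hypoxia-inducible factors. With AHR, the receptor for dioxins and many natural ligands, it drives enzymes such as CYP1A1 and CYP1B1. Its paralog ARNT2 and the clock proteins BMAL1 and BMAL2 can fill related places in such pairs.

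The 6 libraries held between 30168239 and 35271453 counts of polyA RNA, within a range of 26057022 to 38341713 over all 27. Whether replicates came from different dishes of cells is not stated, so a p-value here weighs a difference only against variation among replicate libraries, which may be technical. In the main fit all 27 libraries set that variation (biological coefficient of variation 14.1%), where the 9 normoxia libraries gave 7.03%. Parental libraries varied more (biological coefficient of variation 9.83%) than clone B libraries (4.54%). The ductal keratins KRT8, KRT18 and KRT19 were abundant in both genotypes, with KRT8 between 3491 and 3833 CPM (counts scaled to library size by TMM) in clone B and between 3791 and 5183 CPM in parental cells. None of the 5 ductal markers, which also include KRT7 and EPCAM, passed the test. Among markers of other cell types, the summed fibroblast markers were 11.8 to 16.5 CPM in clone B and 20.4 to 28.2 CPM in parental cells. Most of that sum came from COL3A1, which did not pass. Of 6 tested fibroblast markers 2 were lower, DCN and LUM, and 0 higher. DCN did not pass under DESeq2 (adjusted p = 0.0591), nor in 5 of 6 fits that left out each library in turn. PDGFRB and ACTA2 had more counts in clone B and the other members fewer. The T-cell and erythroid genes CD3E and HBB were at 0 in all 6 libraries. In bulk RNA, fewer cells of a type and less RNA per cell cannot be told apart. The summed haematopoietic markers were 140 to 145 CPM in clone B and 77.9 to 97.3 CPM in parental cells, nearly all of it from CD68, a lysosomal protein. Endothelial, acinar, islet and neural markers summed to under 4 CPM in every library.

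Transcripts of ARNT itself (chromosome 1) remained. They stood at 63.0, 63.1 and 65.5 CPM in clone B and at 70.1, 75.3 and 68.3 CPM in parental cells. The clone B values were all below the parental ones, but the log2 fold change of −0.16 ± 0.09 (SE) missed the threshold (edgeR quasi-likelihood test, Benjamini-Hochberg adjusted p = 0.199). With the 6 libraries fitted on their own the value was −0.17 and passed (adjusted p = 0.0461). The level of a transcript does not check a knockout, because an edited coding sequence can still be transcribed.

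Clone B differed from parental cells at many genes even at 20% oxygen. Of 13943 tested genes, 3697 (26.5%) passed an adjusted p of 0.05, with 1839 (13.2%) higher and 1858 (13.3%) lower in clone B. These shares of all tested genes are the background for the counts given for each gene list below. At a fold change of at least 2, 752 were higher (5.39%) and 710 lower (5.09%), and at least 8-fold changes were made by 117 genes in each direction. The libraries of the 2 groups did not overlap at 51.6% of tested genes. Genes named from a list below were mostly picked as its largest called changes, so their separation is in large part set by that choice. The median log2 fold change over tested genes was 0.01. Fitting the 6 libraries on their own gave 5710 calls.

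The deepest falls among well-expressed genes took their transcripts close to nothing. The 20 falls and 20 rises named here were picked by size among called genes whose libraries did not overlap, so their separation is part of that choice. HDGFL3, a member of the hepatoma-derived growth factor family on chromosome 15, had 3 counts over the clone B libraries and 1943 over the parental ones, a ratio of 705 in favour of parental cells (95% counting interval 241 to 3423). CYP1B1, the AHR-driven cytochrome P450, had 1.83, 1.84 and 3.69 CPM in clone B and 274, 236 and 282 CPM in parental cells. Its log2 fold change was −6.75 ± 0.30 (adjusted p = 2.61e-15), and its exons overlap those of an antisense gene over 13.02% of their length. ABCG2, the drug efflux transporter, had 1.97, 1.57 and 3.14 CPM in clone B and 129 CPM in each parental library, a log2 fold change of −5.85 ± 0.20 (adjusted p = 1.06e-17). The clone B libraries of CYP1B1 and ABCG2 lay below 4 CPM.

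Genes for adhesion, lipid mediators and growth signals were among the same falls. CDH1, which encodes E-cadherin, had 1.13, 1.30 and 1.37 CPM in clone B and 59.6, 58.9 and 61.5 CPM in parental cells (log2 −5.57 ± 0.18, adjusted p = 4.45e-18). PTGS1, the constitutive cyclooxygenase, had 0.676, 0.567 and 1.17 CPM in clone B and 31.2, 30.8 and 30.1 CPM in parental cells. LAMA3, the laminin alpha chain of epithelial basement membranes, had 0.620, 0.324 and 0.328 CPM in clone B and 12.7, 12.6 and 14.7 CPM in parental cells. The log2 fold change was −5.24 for PTGS1 and −4.97 for LAMA3. The rest of the 20 deepest falls were ZNF385D, the potassium channel KCNK3, UPK1B, CCM2L, the adenosine receptor ADORA1, the collagen COL26A1, the polarity gene PRICKLE1, the ligand BMP5, PHLDB2, C14orf132, TMEM26, the EGF-receptor ligand EREG, the prolyl hydroxylase EGLN3 and XKR7, with log2 fold changes between −6.52 (ZNF385D) and −4.78. Without clone B library 3 the value of ZNF385D was −7.16.

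The largest rises reached the same size. EPHB6, a member of the Eph receptor family without kinase activity, had 74.4, 79.1 and 70.6 CPM in clone B and 0.403, 0.422 and 0.772 CPM in parental cells (log2 7.13 ± 0.31, adjusted p = 2.21e-15). TRBC2, a constant segment of the T-cell receptor beta chain, had 17.3, 18.7 and 18.3 CPM in clone B and 0.0620, 0.112 and 0.0926 CPM in parental cells (log2 7.60 ± 0.27). TRPV6, a calcium channel of absorptive epithelia, had 5.77, 6.45 and 6.04 CPM in clone B and 0, 0.0281 and 0.154 CPM in parental cells (log2 6.58 ± 0.46). With 6 parental counts in all, the TRPV6 value became 8.35 without parental library 3. The 3 genes lie close together (GENCODE v29, GRCh38), TRBC2 at chr7:142801041-142802748, EPHB6 at chr7:142855061-142871094 and TRPV6 at chr7:142871203-142885762. Reads of TRBC2 may be shared with its near-identical copy TRBC1, and the T-cell gene CD3E was at 0, as given above.

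MAF, a basic leucine zipper factor on chromosome 16, had 794 counts over the clone B libraries and 3 over the parental ones, a ratio of 243 (95% counting interval 82.9 to 1181). SEL1L3 had 85.3, 87.6 and 84.3 CPM in clone B and 1.15, 1.01 and 1.02 CPM in parental cells (log2 6.33 ± 0.18, adjusted p = 2.48e-19). COL1A1, the main chain of type I collagen, was the most abundant of the 20 largest rises, with 888, 869 and 871 CPM in clone B and 44.5, 37.2 and 38.8 CPM in parental cells (log2 4.45 ± 0.23). ANKRD1, a frequent target of YAP, had 81.1, 89.6 and 85.5 CPM in clone B and 3.69, 2.67 and 4.51 CPM in parental cells (log2 4.56 ± 0.38). The other 13 of the 20 were the G-protein subunit GNG2, GPRIN3, the cationic amino acid transporter SLC7A2, TCAF2, the costimulatory receptor TNFRSF9, the glycosyltransferase GALNT16, the desmosomal cadherin DSC3, the synaptic adhesion gene NLGN1, TMEM92, PARM1, EPHB1, FRMPD3 and the zinc-finger factor GLIS1, between 5.89 (GNG2) and 4.20 (GLIS1) on the log2 scale. Without parental library 1 the value of TMEM92 was 5.75, against 4.57 with it.

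**Figure D1:**
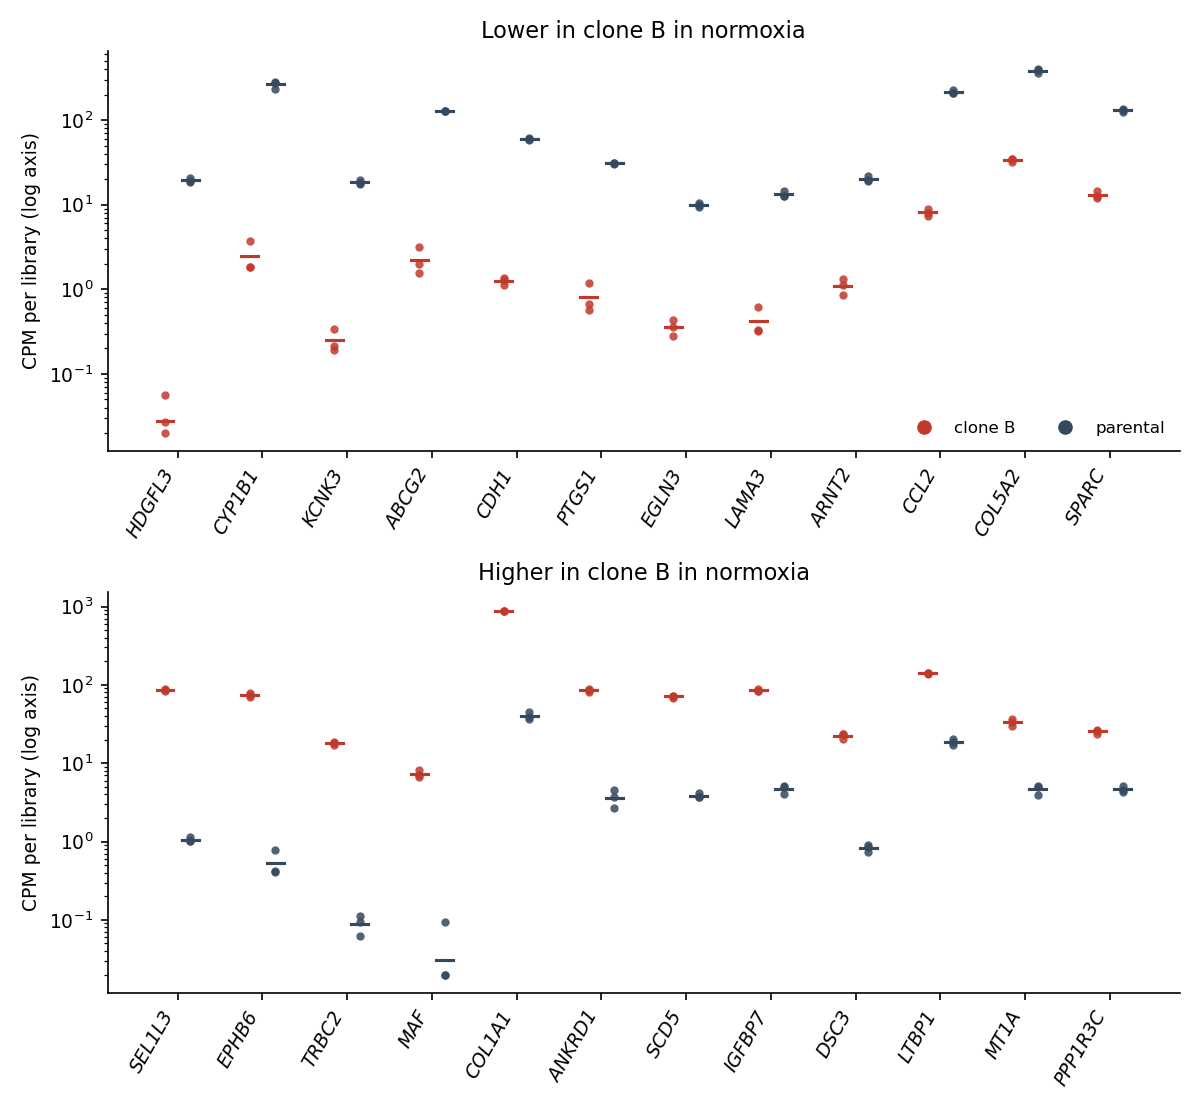
CPM of each library on a log axis for 12 genes that fell (top) and 12 that rose (bottom), clone B in red to the left of parental cells in dark blue; short lines are group means and values under 0.02 CPM are drawn at 0.02. CYP1B1 lies at 3.69 CPM or less in clone B and at 236 CPM or more in parental cells, and COL1A1 at 869 CPM or more in clone B and at 44.5 CPM or less in parental cells.

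The partners of ARNT and their oxygen sensors moved in both directions. Of 10 listed HIF subunits and hydroxylases 7 were tested, 2 were higher and 2 lower, with a median log2 fold change of −0.07. HIF1A stood at 197, 193 and 200 CPM in clone B and at 204, 176 and 210 CPM in parental cells, overlapping, with a log2 fold change of −0.00 ± 0.16 (adjusted p = 0.995). EPAS1, the HIF2A subunit, rose to 384, 402 and 381 CPM in clone B, against 244, 267 and 240 CPM in parental cells (0.64 ± 0.13, adjusted p = 0.000681). ARNT2, the paralog, fell to 1.13, 0.864 and 1.31 CPM in clone B, against 19.2, 21.7 and 19.6 CPM in parental cells (−4.19 ± 0.23, adjusted p = 9.81e-14). EGLN3, a hydroxylase that marks HIF proteins for degradation and is itself a HIF target, fell to 0.282, 0.432 and 0.355 CPM, against 9.82, 9.48 and 10.5 CPM in parental cells (−4.78 ± 0.23). EPAS1, ARNT2 and EGLN3 separated the genotypes. HIF1AN, the asparaginyl hydroxylase, was called at 0.34 (adjusted p = 0.0385). It lost the call without clone B library 1, 2 or 3 or parental library 1 or 3 (adjusted p between 0.0626 and 0.151). HIF1AN also lost it with no filter on low counts (adjusted p = 0.0510). VHL, the ubiquitin ligase subunit, did not pass (−0.07, adjusted p = 0.629).

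Among 9 tested genes of the AHR pathway of 14 listed, 4 were lower and 2 higher (median −0.24). CYP1A1 and ALDH1A3 lie on chromosome 15, and of the 7 genes off it 2 were lower and 2 higher (median −0.07). Beside CYP1B1, the gene TIPARP fell, a member of the poly-ADP-ribose polymerase family that restrains AHR. TIPARP stood at 34.4, 32.3 and 31.8 CPM in clone B and at 51.8, 55.2 and 51.8 CPM in parental cells (−0.69 ± 0.10, adjusted p = 5.55e-06). ALDH1A3, a retinaldehyde dehydrogenase on chromosome 15, fell to 101, 106 and 99.6 CPM, against 337, 364 and 318 CPM in parental cells (−1.73 ± 0.10), 28.6% of its exon length being shared with an antisense gene. CYP1A1 was barely transcribed in either genotype, at 0.0282, 0.108 and 0 CPM in clone B and 0.372, 0.169 and 0.247 CPM in parental cells. Its call (−2.41 ± 0.88, adjusted p = 0.0427) was lost without clone B library 1 or 3 or parental library 1 or 3 (adjusted p between 0.0749 and 0.166). The CYP1A1 call was also lost with a block for replicate number (adjusted p = 0.0516), and its value was −3.90 without clone B library 2. LRAT, which esterifies retinol, had 36 counts in clone B and 3 in parental cells, a ratio of 11.02 (95% counting interval 3.48 to 55.9). CYP2S1 was called at 0.75 and lost the call without clone B library 1 or parental library 1 or 3 (adjusted p between 0.0610 and 0.0840), and AHR itself did not pass (−0.07 on the log2 scale).

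Clock factors of the bHLH-PAS family, and the repressors that act with them, were higher in 4 and lower in 0 of 18 tested (median 0.17), where 13.2% of all tested genes were higher and 13.3% lower. NPAS2, a CLOCK paralog that pairs with BMAL1, stood at 205, 204 and 197 CPM in clone B and at 101, 103 and 106 CPM in parental cells (0.97 ± 0.16, adjusted p = 3.52e-05). BMAL2 stood at 188, 182 and 182 CPM in clone B and at 111 CPM in each parental library (0.73 ± 0.12). NR1D2, a nuclear receptor that represses BMAL1, rose by 1.26 ± 0.17 and the repressor CIART by 1.07 ± 0.20. These 4 genes separated the genotypes. PER3, a period gene, missed the threshold at −0.44 (adjusted p = 0.126) and passed it with the 6 libraries fitted on their own (0.00478). In that fit BMAL1 and the BMAL1 repressor NR1D1 also passed, at 0.37 (adjusted p = 0.00449) and 0.45 (0.00716), where the fit of all 27 libraries gave 0.38 (0.0948) and 0.46 (0.0526). The other 11 clock genes did not pass, at values between −0.25 (DBP) and 1.57 (HLF).

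The upstream sequences of 4 called genes are shown because they hold the core motifs that ARNT pairs and clock factors read. RefSeq sequence (GRCh38.p14) covers the 250 bases before the start, 5′ to 3′ on the gene's strand, with capitals for ACGTG, the core of the hypoxia response element, and GCGTG, the core of the AHR element, searched on both strands. TIPARP (chr3:156674340-156674589, plus strand) and CYP1A1 (chr15:74725529-74725778, minus strand) are AHR targets, AK4 (chr1:65147302-65147551, plus strand) is a hypoxia-regulated adenylate kinase, and CIART lies at chr1:150282304-150282553 on the plus strand.
TIPARP: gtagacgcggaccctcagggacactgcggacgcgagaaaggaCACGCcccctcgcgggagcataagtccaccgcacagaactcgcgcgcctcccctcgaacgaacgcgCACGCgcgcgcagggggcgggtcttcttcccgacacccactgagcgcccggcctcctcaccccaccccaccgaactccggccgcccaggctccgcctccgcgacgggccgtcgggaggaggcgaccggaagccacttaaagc
CYP1A1: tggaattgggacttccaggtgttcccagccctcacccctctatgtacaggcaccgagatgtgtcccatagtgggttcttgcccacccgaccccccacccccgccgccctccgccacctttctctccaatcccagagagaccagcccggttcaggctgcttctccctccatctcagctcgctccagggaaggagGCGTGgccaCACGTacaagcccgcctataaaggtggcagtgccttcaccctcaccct
AK4: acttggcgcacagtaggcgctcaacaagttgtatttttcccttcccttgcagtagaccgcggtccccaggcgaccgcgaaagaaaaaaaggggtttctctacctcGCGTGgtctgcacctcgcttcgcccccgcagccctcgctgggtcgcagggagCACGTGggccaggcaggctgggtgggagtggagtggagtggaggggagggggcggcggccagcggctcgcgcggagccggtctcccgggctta
CIART: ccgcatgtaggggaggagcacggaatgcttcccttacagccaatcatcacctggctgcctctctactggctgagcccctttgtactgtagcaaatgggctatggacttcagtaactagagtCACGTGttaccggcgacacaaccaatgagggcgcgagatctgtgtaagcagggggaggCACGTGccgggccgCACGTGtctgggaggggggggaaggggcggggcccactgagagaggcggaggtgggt

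The windows of TIPARP, CYP1A1 and AK4 hold GCGTG 2, 1 and 1 times. ACGTG occurs 1 time in the CYP1A1 window. A CACGTG, which is its own reverse complement and so holds ACGTG on both strands, gives AK4 2 matches and CIART 6. These letters are common. Of 10944 tested genes with a sequence in the table, 22.7% hold ACGTG and 44.3% hold GCGTG in the same window. Among genes at least 2-fold lower in clone B the shares were 17.1% and 38.3%, and among genes at least 2-fold higher 19.3% and 37.8%. A match is only a run of letters and does not show that a factor binds there.

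HIF targets, the genes that these factors are best known for, were split in normoxia. Of 37 tested targets outside glycolysis, 8 were higher and 8 lower in clone B, with a median of −0.06. PPP1R3C, a glycogen-targeting phosphatase subunit, rose to 26.1, 23.6 and 26.6 CPM in clone B, against 4.58, 4.30 and 5.09 CPM in parental cells (2.45 ± 0.23, adjusted p = 3.18e-09). STC2, the hormone stanniocalcin 2, stood at 114, 109 and 105 CPM in clone B and at 55.8, 55.5 and 55.0 CPM in parental cells (0.98 ± 0.09). LOX, which crosslinks collagen, rose by 1.82 ± 0.32 at a low level, up to 1.43 CPM in clone B and 0.465 CPM in parental cells. AK4 fell to 31.4, 35.0 and 33.6 CPM in clone B, against 69.3, 63.1 and 69.3 CPM in parental cells (−1.01 ± 0.12), and DDIT4, an mTORC1 inhibitor, fell by 0.92 ± 0.14 on the log2 scale. All 5 genes separated the genotypes, 3 upward and 2 downward, but they were picked by size, and 51.6% of all tested genes did not overlap either. DDIT4 shares 41.2% of its exon length with an antisense gene.

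In glycolysis and glucose uptake 2 of 21 tested genes were higher and 2 lower (median −0.05), where 26.5% of all tested genes were called. PDK3, a kinase that restrains pyruvate dehydrogenase, fell to 2.14, 2.21 and 2.21 CPM in clone B, against 14.7, 14.5 and 16.3 CPM in parental cells (−2.79 ± 0.19, adjusted p = 7.69e-12). LDHA, lactate dehydrogenase A, fell to between 1265 and 1334 CPM in clone B, against 1784 to 2015 CPM in parental cells (−0.53 ± 0.11). Hexokinase 1 (HK1) was called higher at 0.50 ± 0.15 and PFKFB3 at 0.27. HK1 lost the call without clone B library 2 (adjusted p = 0.0533) or parental library 3 (0.0888), and PFKFB3 without each of the 6 libraries in turn (0.0649 to 0.180). PFKFB3 also lost it with RLE size factors (0.0534), no filter on low counts (0.0861) and a block for replicate number (0.0519).

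Genes of the amino acid response, which ATF4 drives when amino acids are short, were mostly higher in clone B. Of 38 tested, 25 were higher and 3 lower, against 13.2% and 13.3% of all tested genes, with a median of 0.57. PHGDH, the first enzyme of serine synthesis, rose to 80.7, 88.8 and 83.0 CPM in clone B, against 28.97, 34.9 and 23.99 CPM in parental cells (1.52 ± 0.15, adjusted p = 7.98e-09). ASNS, asparagine synthetase, rose to 241, 248 and 244 CPM in clone B, against 96.9, 115 and 89.2 CPM in parental cells (1.28 ± 0.13), with 44.6% of its exon length shared with another annotated gene. CHAC1, which degrades glutathione, rose to 8.62, 8.396 and 7.43 CPM, against 2.85, 4.16 and 2.81 CPM in parental cells (1.31 ± 0.21). In all 3 genes the lowest clone B library exceeded the highest parental one. The 3 lower members were GDF15 (−1.02), DDIT4 and the leucine transporter subunit SLC7A5 (−0.46), of which SLC7A5 lost its call without clone B library 1 or 3 or parental library 1 or 2 (adjusted p between 0.0596 and 0.133).

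Early response factors downstream of growth signals were also mostly higher, with 14 of 27 tested genes higher and 2 lower (median 0.46). JUN, an AP-1 subunit, stood at 116, 117 and 102 CPM in clone B and at 44.7, 48.5 and 41.6 CPM in parental cells (1.31 ± 0.19, adjusted p = 6.16e-06). DUSP5, a nuclear phosphatase of ERK, stood at 72.6, 75.4 and 68.9 CPM in clone B and at 25.4, 29.7 and 23.9 CPM in parental cells (1.46 ± 0.16). MAFF rose by 1.07 ± 0.15 and MYC by 0.62 ± 0.13. Metallothioneins, which bind zinc and copper, were higher in 5 and lower in 0 of 8 tested members of their list (median 1.16). MT1A had 33.7, 36.6 and 29.6 CPM in clone B and 5.14, 4.95 and 3.98 CPM in parental cells (2.83 ± 0.19, adjusted p = 1.08e-11), MT1M rose by 3.36 ± 0.44 and MT1X by 1.46 ± 0.24. These genes separated the genotypes, and near-identical metallothionein copies may exchange reads.

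E-cadherin and other epithelial genes fell while CDH17 and 2 factors of epithelial-mesenchymal transition rose. Of 21 tested cadherins and transition factors 6 were lower and 4 higher (median −0.07). Beside CDH1, the placental cadherin CDH3 fell to 0.366, 0.405 and 0.792 CPM in clone B, against 9.48, 8.32 and 7.56 CPM in parental cells (−4.01 ± 0.35), and the epithelial splicing factor ESRP1 fell by 3.61 ± 0.25 on the log2 scale. SNAI2, a repressor of CDH1, rose to 3.72, 3.40 and 5.05 CPM in clone B, against 0.527, 0.478 and 0.216 CPM in parental cells (3.30 ± 0.33, adjusted p = 1.39e-08). SNAI1, its paralog, rose to 19.1, 21.1 and 17.0 CPM, against 6.196, 5.85 and 5.002 CPM in parental cells (1.75 ± 0.25), and the intestinal cadherin CDH17 rose by 3.14 ± 0.17. All of these separated the genotypes. In the list of epithelial markers, which also holds genes of the classical subtype of pancreatic cancer, 11 of 26 tested were lower and 0 higher (median −0.35), among them the transcription factor ELF3 (−4.77 ± 0.26), at up to 1.10 CPM in clone B and 29.02 CPM in parental cells, and the tetraspanin TSPAN8 (−4.21 ± 0.47). Keratins 8, 18 and 19 did not pass, as given above. Of 5 tested basal-like markers 1 was higher, the connexin GJB2 (1.39).

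Matrix genes moved in both directions, with 8 of 26 collagens higher and 5 lower (median 0.25). COL5A1, a chain of fibrillar type V collagen, rose to 82.4, 77.9 and 80.0 CPM in clone B, against 13.9, 14.8 and 13.8 CPM in parental cells (2.50 ± 0.17, adjusted p = 8.31e-12). COL5A2, which joins the same collagen, fell to 34.3, 31.5 and 34.5 CPM in clone B, against 386, 363 and 402 CPM in parental cells (−3.52 ± 0.12, adjusted p = 8.89e-18). These 2 chains of type V collagen thus moved in opposite directions, each without overlap. COL13A1 was higher (1.88), and COL12A1 (−1.87) and COL6A2 (−1.12) lower.

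Of 34 tested matricellular and other matrix proteins 9 were higher and 9 lower (median 0.18). LTBP1, which stores latent TGF-beta in the matrix, rose to 143, 137 and 140 CPM in clone B, against 17.3, 18.5 and 20.3 CPM in parental cells (2.90 ± 0.12, adjusted p = 4.52e-16). SPARC, a collagen-binding glycoprotein, fell to 12.6, 12.1 and 14.5 CPM, against 133, 137 and 124 CPM in parental cells (−3.33 ± 0.20). Both separated the genotypes. The summed fibroblast markers, mostly COL3A1, were also below parental levels as given above, and their part in the matrix genes was not tested. Integrins and laminins were lower in 11 and higher in 5 of 27 tested (median −0.37), with the hemidesmosome integrin ITGB4 at −2.77 ± 0.17 and the laminin LAMA4 at −2.38 ± 0.17, against a rise of the collagen receptor ITGA2 (1.06 ± 0.25). Of 24 tested proteases and plasminogen genes 7 were higher and 4 lower (median −0.02). MMP2, gelatinase A, stood at 94.6, 97.5 and 94.2 CPM in clone B and at 206, 236 and 199.8 CPM in parental cells (−1.16 ± 0.12). The metalloprotease ADAMTS6 rose by 3.92 ± 0.47 (4.98 without parental library 3), and the genotypes did not overlap at either gene.

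**Figure D2:**
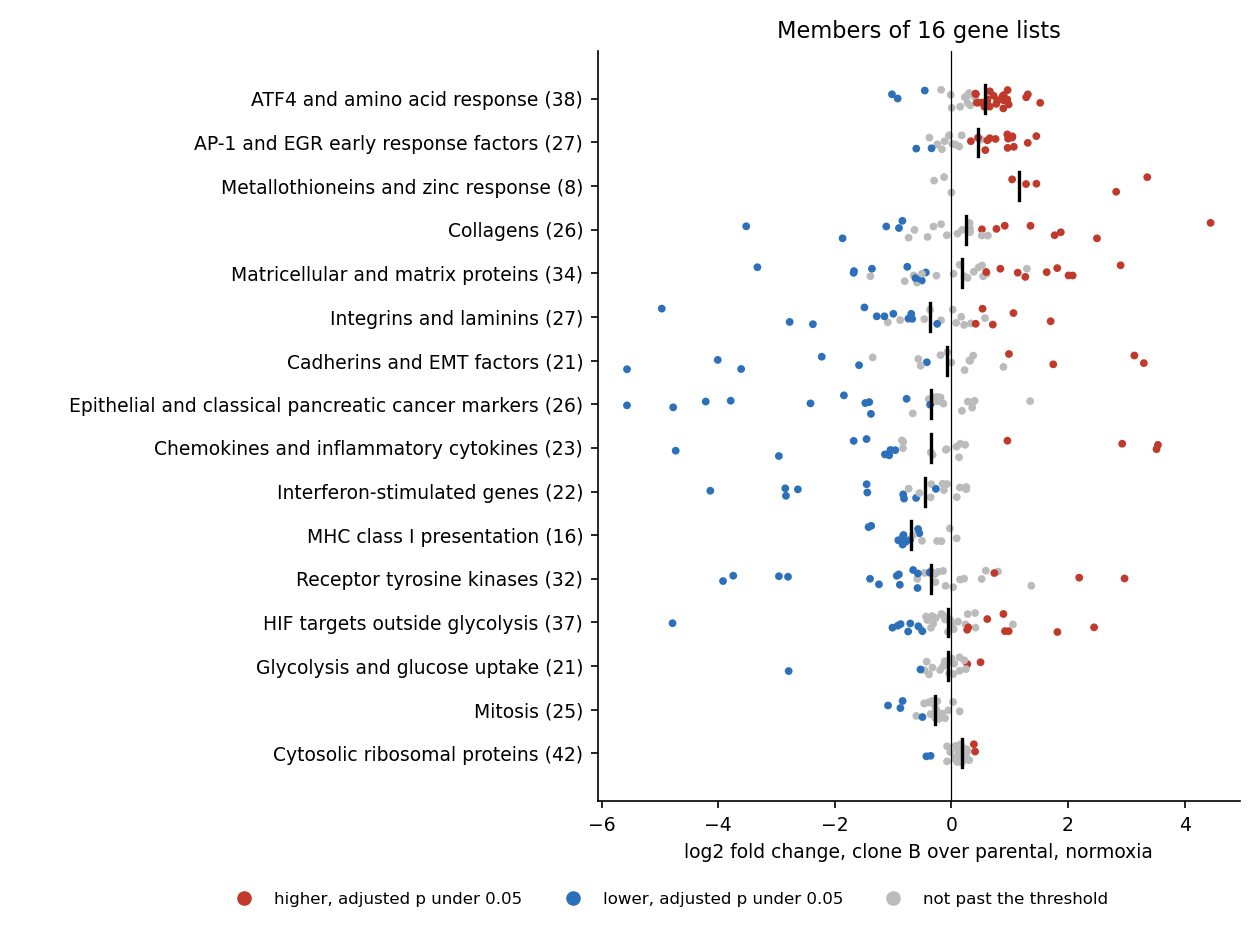
Log2 fold changes of clone B over parental cells in normoxia for the tested members of 16 gene lists (number tested in brackets); points are genes, red for higher and blue for lower at an adjusted p under 0.05, and black bars are medians. The amino acid response and metallothioneins lie mostly to the right, epithelial, interferon and MHC class I genes mostly to the left, and collagens and matrix proteins on both sides.

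Of 23 tested chemokines and cytokines 8 were lower and 4 higher (median −0.35). CCL2, which attracts monocytes, fell to 7.29, 8.05 and 8.93 CPM in clone B, against 211, 224 and 209.8 CPM in parental cells (−4.73 ± 0.59, adjusted p = 5.63e-07). CSF1, the macrophage growth factor, fell to 77.6, 76.7 and 72.7 CPM, against 243, 254 and 228 CPM in parental cells (−1.68 ± 0.34), and the T-cell attractant CCL5 fell by 2.96 ± 0.28 on the log2 scale. IL11, a cytokine of the IL6 family, rose to 16.8, 18.3 and 15.9 CPM in clone B, against 1.24, 1.74 and 1.36 CPM in parental cells (3.54 ± 0.27). These 4 genes separated the genotypes. Interferon-stimulated genes were lower in 10 and higher in 0 of 22 tested (median −0.45), with OASL at 1.66, 2.24 and 1.94 CPM in clone B and 13.7, 15.1 and 13.4 CPM in parental cells (−2.85 ± 0.26), and BST2, which tethers virus particles, at −2.84 ± 0.33 (−3.42 without clone B library 1). MHC class I presentation genes were lower in 10 and higher in 0 of 16 tested (median −0.68). ERAP2, which trims peptides, fell to 12.7, 12.96 and 12.8 CPM, against 34.0, 32.3 and 36.7 CPM in parental cells (−1.42 ± 0.14), and HLA-F fell by 1.38 ± 0.33 with 28.5% of its exon length shared with another annotated gene. Among the 10 lower genes, B2M and PDIA3 lie on chromosome 15, and off that chromosome 8 of 14 were lower.

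Of 32 tested receptor tyrosine kinases 14 were lower in clone B and 3 higher (median −0.35), where 13.3% of all tested genes were lower and 13.2% higher. Off chromosome 15 the counts were 12 lower and 3 higher of 30. KIT, the stem cell factor receptor, fell to 0.591, 0.432 and 0.437 CPM in clone B, against 7.06, 6.80 and 8.34 CPM in parental cells (−3.92 ± 0.36). FGFR2 fell by 3.74 ± 0.31 and the WNT5A receptor ROR2 by 2.96 ± 0.26 on the log2 scale. EPHB2 rose to 247, 252 and 232 CPM, against 53.8, 61.0 and 45.1 CPM in parental cells (2.19 ± 0.15, adjusted p = 1.38e-11), and KDR, the VEGF receptor 2, rose by 2.97 ± 0.59 at about 1 CPM in clone B. Of 40 tested semaphorins, plexins, ephrins and neuropilins 15 were lower and 3 higher (median −0.33). The secreted semaphorins SEMA3D (−3.56), SEMA3A (−2.27) and SEMA3F (−1.75) fell. The neuropilin NRP2 rose to 84.9, 81.4 and 81.8 CPM in clone B, against 10.2, 10.2 and 11.1 CPM in parental cells (2.98 ± 0.23).

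In the TGF-beta and BMP list 9 of 32 tested were higher and 5 lower (median 0.03). SMAD3 and SMAD6, which carry and restrain these signals, are 2 of those 5 and lie on chromosome 15, and off it 9 of 29 were higher and 3 lower (median 0.18). TGFBR3, the coreceptor betaglycan, fell to 1.52, 1.27 and 1.94 CPM in clone B, against 27.4, 27.8 and 31.6 CPM in parental cells (−4.20 ± 0.25, adjusted p = 6.7e-13), and the ligand BMP7 fell by 3.68 ± 0.32 on the log2 scale. INHBB, a subunit of activin B, rose to 128, 123 and 118 CPM, against 36.0, 38.9 and 34.4 CPM in parental cells (1.76 ± 0.15), and the activin-binding FST (2.49 ± 0.35) and the follistatin-like FSTL1 (1.86 ± 0.17) rose too. IGF-binding proteins were higher in 5 and lower in 2 of 13 tested genes of their list, which includes the stanniocalcins (median 0.56). IGFBP7 stood at 83.5, 89.4 and 84.3 CPM in clone B and at 5.11, 5.005 and 4.08 CPM in parental cells (4.18 ± 0.14, adjusted p = 8.51e-18), with 18.9% of its exon length shared with POLR2B. IGFBP4 stood at 151, 159 and 139.7 CPM in clone B and at 36.5, 46.9 and 31.5 CPM in parental cells (1.97 ± 0.16). IGFBP3 went the other way, by −2.73 ± 0.34. Each gene named here separated the genotypes.

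The largest change among the lipid genes was a rise. SCD5, a stearoyl-CoA desaturase, had 68.2, 72.3 and 72.8 CPM in clone B and 4.12, 3.71 and 3.74 CPM in parental cells (4.20 ± 0.12, adjusted p = 2.48e-19). Of 16 tested genes of fatty acid synthesis and desaturation, 2 were higher and 5 lower (median −0.06), with the elongase ELOVL7 at 0.81 ± 0.18, the regulator SREBF1 at −0.77 ± 0.17 and the desaturase FADS2 at −0.68 ± 0.13. Cholesterol genes had 1 of 22 higher and 3 lower, NRF2 targets 3 of 22 higher and 3 lower, and the unfolded protein response 2 of 20 higher and 3 lower. Of all tested genes 13.2% were higher and 13.3% lower. The NRF2 target ABCC2, an efflux pump, was at −2.13. Of 16 genes around TXNIP and the MYC network 5 were higher and 3 lower, with TXNIP, which limits glucose uptake, at 1.26 ± 0.27 and the MYC antagonist MXD1 at 2.04 ± 0.45. Lysosome and autophagy genes were higher in 6 and lower in 3 of 22, with cathepsin B (CTSB) at 0.58, and the cholesterol exporters of the lysosome NPC1 (−0.89) and NPC2 (−0.66) lower. S100 proteins were lower in 3 of 10 and higher in 0.

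Cell-cycle and protein-synthesis genes are read against the 26.5% of all tested genes that were called. Mitosis genes were lower in 4 and higher in 0 of 25 tested (median −0.28), and KIF23 (−1.09), CCNB2 (−0.88) and BUB1B (−0.84), 3 of those 4, lie on chromosome 15. DNA replication genes were lower in 5 and higher in 2 of 33 (median −0.13), with thymidylate synthase (TYMS) at −0.83, 46.6% of whose exon length is shared with ENOSF1, and the helicase subunit MCM6 at −0.64. Of 17 G1 cyclins and CDK inhibitors 3 were higher and 1 lower. Cyclin D1 (CCND1) stood at 529, 524 and 505 CPM in clone B and at 225, 239 and 217 CPM in parental cells (1.19 ± 0.14, adjusted p = 2.63e-07). CDKN1A, the inhibitor p21, stood at 130.04, 132 and 112 CPM in clone B and at 49.8, 55.1 and 43.8 CPM in parental cells (1.33 ± 0.18). Both separated the genotypes upward. Of 20 p53 targets 4 were higher and 5 lower, with BTG2 at −2.11 and the death receptor FAS at −1.01. Ribosome biogenesis had 0 of 22 called, at a median of 0.05. Cytosolic ribosomal proteins had 2 of 42 higher and 2 lower, mitochondrial DNA-encoded transcripts 2 of 13 higher, and the nuclear-encoded respiratory chain 3 of 39 higher and 2 lower.

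Called genes were not spread evenly over the genome, and chromosome 15 stood apart. Of 446 tested genes there, 293 (65.7%) were lower and 14 (3.14%) higher in clone B, with a median log2 fold change of −0.67, a ratio of 0.628. The middle range between quartiles ran from −0.90 to −0.37, and 87.4% of the genes lay below 0. On all other chromosomes together 11.6% of 13455 tested genes were lower and 13.5% higher, with a median of 0.02. Chromosome 15 holds 3.20% of tested genes and 15.8% of those called lower. Among single chromosomes the next shares of lower genes were 26.9% on chromosome 18, 22.5% on chromosome 16 and 22.1% on chromosome 7.

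**Figure D3:**
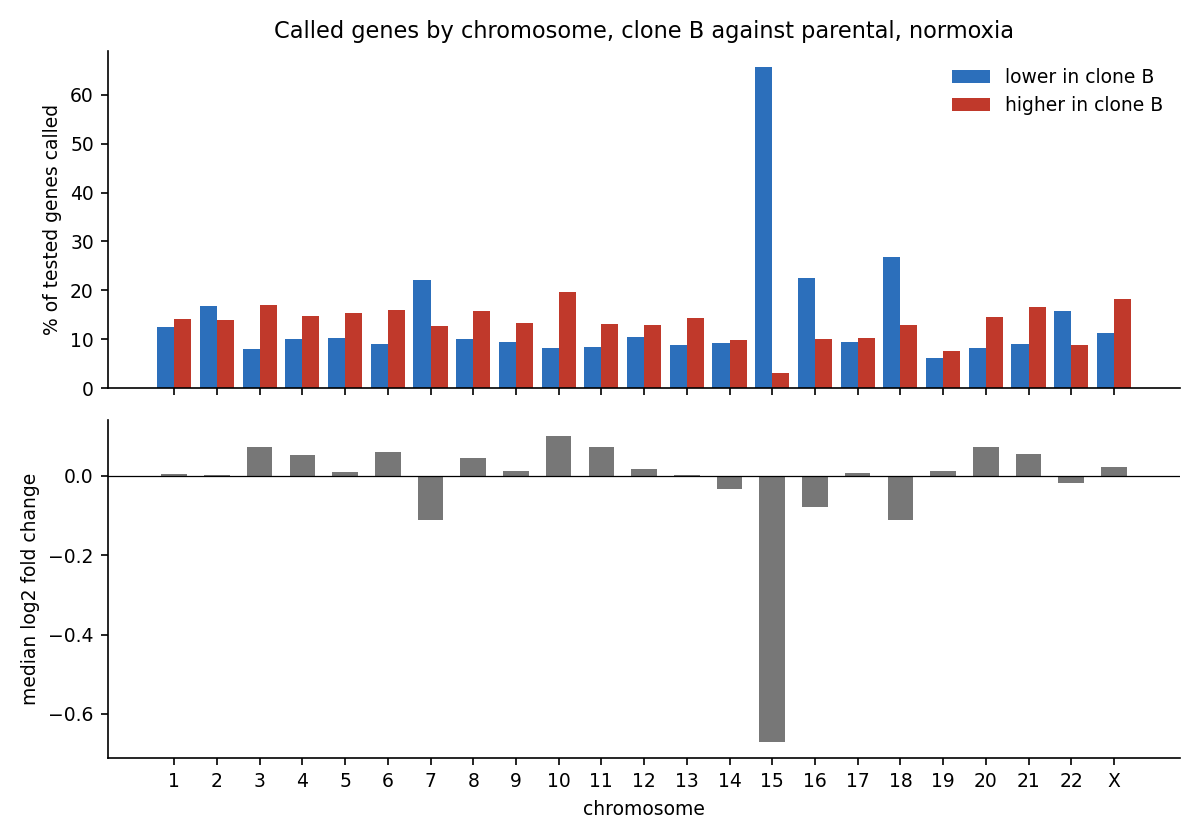
Top, percent of tested genes on each chromosome called lower (blue) or higher (red) in clone B at an adjusted p under 0.05; bottom, median log2 fold change of clone B over parental cells. Chromosome 15 has 65.7% of its genes lower and a median of −0.67, and no other chromosome with at least 20 tested genes reaches 30% in either direction.

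The lower genes of chromosome 15 ran along its length. All 7 windows of 10 Mb with at least 20 tested genes between 30 and 100 Mb had a median between −0.81 (80 to 90 Mb) and −0.58 (40 to 50 Mb). The longest unbroken run of neighbouring tested genes called in 1 direction in the genome held 25 genes at chr15:74719542-76311472 (GENCODE v29, GRCh38), from CYP1A1 to the electron transfer flavoprotein subunit ETFA, with log2 fold changes between −2.53 (the proteoglycan CSPG4) and −0.35 (the mannose isomerase MPI). It includes the kinase CSK (−0.70), the corepressor SIN3A (−0.70) and the respiratory chain subunit COX5A (−0.61). A run of 13 genes at chr15:78264086-79427432 held the iron regulator IREB2 (−1.07), the proteasome subunit PSMA4 (−0.87), the nicotinic receptor subunits CHRNA5 (−1.68) and CHRNA3 (−1.74) and cathepsin H (CTSH, −1.41). Another of 13 at chr15:80059568-82262763 held ARNT2 and FAH (−1.04), the last enzyme of tyrosine breakdown. IREB2 had 75.8, 72.3 and 81.9 CPM in clone B and 170, 147 and 165 CPM in parental cells, PSMA4 had 144, 143 and 154 CPM in clone B and 250.1, 255 and 301 CPM in parental cells, and the 2 groups did not overlap at either gene. Within these runs, besides CYP1A1, MPI lost its call without clone B library 1 or 3 or parental library 1 or 2 (adjusted p up to 0.136), NRG4 without clone B library 2 or 3 or parental library 3 (up to 0.211), and ADAMTS7 without clone B library 1 or parental library 3 (up to 0.111).

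Shorter stretches elsewhere were also lower. On chromosome 16, 90 of 156 tested genes in the first 10 Mb were lower and 2 higher (median −0.54). On chromosome 18, 23 of 34 in the first 10 Mb and 14 of 27 between 20 and 30 Mb were lower (medians −0.51 and −0.62). On chromosome 2, 17 of 23 between 120 and 130 Mb were lower (median −0.58), and 18 of 31 in the next 10 Mb (−0.53). On chromosome 7, 34 of 59 in the first 10 Mb were lower and 0 higher (median −0.40). On chromosome X, 25 of 58 between 100 and 110 Mb were higher and 3 lower (median 0.36).

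Short runs of neighbours also rose together by larger amounts. A run of 7 genes from FHOD1 to ZDHHC1 at chr16:67229387-67416833 had a median log2 fold change of 1.82, and a run of 5 from POU2AF1 to SIK2 at chr11:111352252-111730853 had a median of 3.58. In a run of 5 that holds the protease-activated receptors F2R and F2RL1, at chr5:76403249-76981158, the median was 1.80. IL11 lay in a run of 5 at chr19:55282072-55378244 with a median of 1.93. CYP1B1, in contrast, lay in a run of 7 lower genes at chr2:37342827-38603586 with a median of −1.38.

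Clone A, the other knockout clone, was tested directly against clone B in normoxia. Of all tested genes 3002 (21.5%) passed, with 1632 (11.7%) higher and 1370 (9.83%) lower in clone B than in clone A. Both clones were compared with the same 3 parental libraries, so the values of each are given side by side, and the calls of one against parental cells are not counted among those of the other. EGLN3 averaged 0.356 CPM in clone B, 0.362 in clone A and 9.94 in parental cells, and CDH1 averaged 1.26 CPM in clone B, 1.62 in clone A and 60.0045 in parental cells. Neither gene passed the test between clones, at log2 −0.01 for EGLN3 (adjusted p = 0.989) and −0.36 for CDH1 (adjusted p = 0.198). CYP1B1 averaged 2.45 CPM in clone B, 50.3 in clone A and 264 in parental cells, and clone B lay below clone A by a log2 of −4.36 ± 0.28 (adjusted p = 6.02e-12). ABCG2 averaged 2.23 CPM in clone B, 1.10 in clone A and 129 in parental cells, and clone B lay above clone A by 1.01 on the log2 scale (adjusted p = 0.00144).

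Several of the largest rises of clone B were much smaller or missing in clone A. EPHB6 averaged 74.7 CPM in clone B, 2.35 in clone A and 0.532 in parental cells (clone B over clone A 4.99, adjusted p = 2.06e-13), and TRBC2 averaged 18.1 CPM in clone B, 0.658 in clone A and 0.0890 in parental cells (4.77). GNG2 averaged 6.72 CPM in clone B, 0.0431 in clone A and 0.111 in parental cells (7.22 ± 0.61), with 4 counts in all in clone A. GPRIN3 had 645 counts in clone B, 2 in clone A and 16 in parental cells, a ratio of clone B to clone A of 288 (95% counting interval 79.3 to 2380). IGFBP7 averaged 85.7 CPM in clone B, 3.56 in clone A and 4.73 in parental cells (4.58, adjusted p = 7.33e-18), and COL1A1 averaged 876, 137 and 40.2 CPM in clone B, clone A and parental cells (2.68). ANKRD1 (4.30), SNAI2 (3.97), SNAI1 (1.62) and COL5A1 (3.94) were likewise higher in clone B than in clone A. PARM1 and GLIS1 were high in both clones, with PARM1 at 7.66 CPM in clone B, 10.9 in clone A and 0.329 in parental cells.

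ASNS and PHGDH stood between the other genotypes in clone B. Of the 38 tested amino acid response genes, 0 were higher and 21 lower in clone B than in clone A, with a median of −0.55. ASNS averaged 244 CPM in clone B, 589 in clone A and 100.4 in parental cells (clone B over clone A −1.27, adjusted p = 2.46e-08), and PHGDH averaged 84.2, 229 and 29.3 CPM in clone B, clone A and parental cells (−1.44, adjusted p = 3.21e-08). Of 33 DNA replication genes 20 were lower and 0 higher in clone B than in clone A, and of 42 ribosomal proteins 9 were lower and 0 higher. Interferon-stimulated genes were higher in 9 and lower in 1 of 22, and epithelial markers higher in 10 and lower in 4 of 26. ELF3, for example, averaged 0.991 CPM in clone B, 0.149 in clone A and 27.2 in parental cells.

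**Figure D4:**
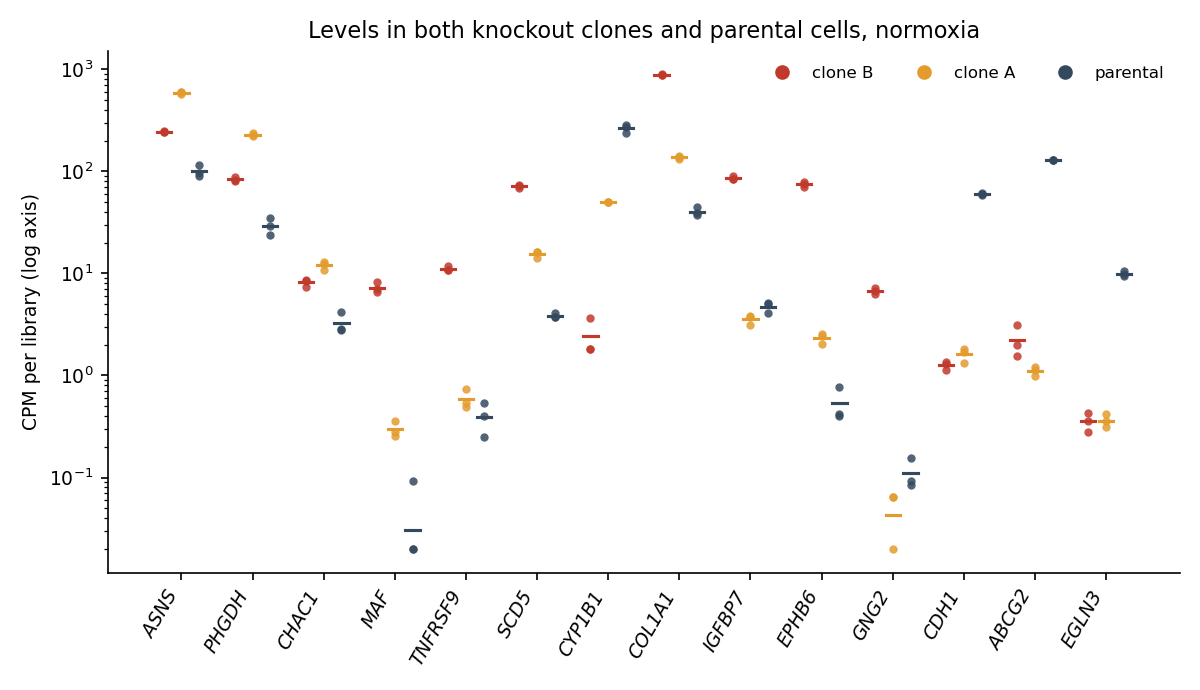
CPM of each normoxia library on a log axis for 14 genes in clone B (red), clone A (orange) and parental cells (dark blue); short lines are group means, and values under 0.02 CPM are drawn at 0.02. ASNS and PHGDH lie between the other groups in clone B, IGFBP7, EPHB6 and GNG2 are high in clone B, and CDH1, ABCG2 and EGLN3 lie below 4 CPM in each clone.

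By position, the median of chromosome 15 was −0.67 in clone B. Clone A had 271 of the 446 genes lower than parental cells (60.8%, median −0.53; background for clone A 15.8% lower), and between clones 39 were higher and 57 lower in clone B (median −0.10). The first 10 Mb of chromosome 7 differed, with a median of −0.40 in clone B and −0.06 in clone A, and 32 of its 59 genes passed the test between clones. A run of 8 lower genes there, at chr7:5620047-6403977, holds the mismatch repair gene PMS2 and the GTPase RAC1, and all 8 were also lower in clone B than in clone A. On chromosome X between 100 and 110 Mb the medians were 0.36 in clone B and 0.00 in clone A, and 30 of 58 genes passed between clones.

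The same pair of genotypes in hypoxia shares no library with the normoxia comparison. There 5006 genes passed (35.9%), 2355 higher (16.9%) and 2651 lower (19%). Of the 3697 genes called in normoxia, 2645 were called the same way in hypoxia, which is 71.5% of the normoxia list and 52.8% of the hypoxia list, and 49 were called the opposite way. Of the 1462 genes called in normoxia at 2-fold or more, 1180 were called the same way in hypoxia. CYP1B1 (−7.03 in hypoxia), ABCG2 (−5.68), SEL1L3 (5.68), EPHB6 (7.38) and SCD5 (4.14) kept their direction, and none of them passed the test of the difference between conditions. Chromosome 15 had 294 of 446 genes lower in hypoxia, with a median of −0.66.

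That difference, hypoxia minus normoxia, passed for 660 genes (4.73%), 208 above 0 (1.49%) and 452 below 0 (3.24%). Of 37 HIF targets outside glycolysis 32 passed. In hypoxia 35 of the 37 were lower in clone B and 0 higher, at a median of −1.41, where normoxia gave −0.06. Of 21 glycolysis genes 16 passed, and the median was −1.33 in hypoxia and −0.05 in normoxia. PPP1R3C averaged 21.6 CPM in clone B and 57.6 CPM in parental cells in hypoxia, so it was higher in clone B in normoxia and lower in hypoxia (difference −3.86 ± 0.31, adjusted p = 4.22e-09). STC2 likewise had a log2 of −1.41 in hypoxia and 0.98 in normoxia (difference −2.39, adjusted p = 1.35e-12). EGLN3, already low in clone B in normoxia, had −6.01 in hypoxia (difference −1.22, adjusted p = 0.0378). Of 38 amino acid response genes 16 passed, the median being −0.07 in hypoxia and 0.57 in normoxia, with PHGDH at −0.32 and ASNS at −0.26 in hypoxia, neither of which passed there (adjusted p = 0.0841 and 0.104). SPARC and CDH1 were less far below parental cells in hypoxia, at −1.91 (difference 1.42, adjusted p = 0.00111) and −3.97 (difference 1.595, adjusted p = 5.85e-05). HIF1A had a log2 of 1.44 in hypoxia and −0.00 in normoxia (difference 1.44, adjusted p = 0.000159).

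**Figure D5:**
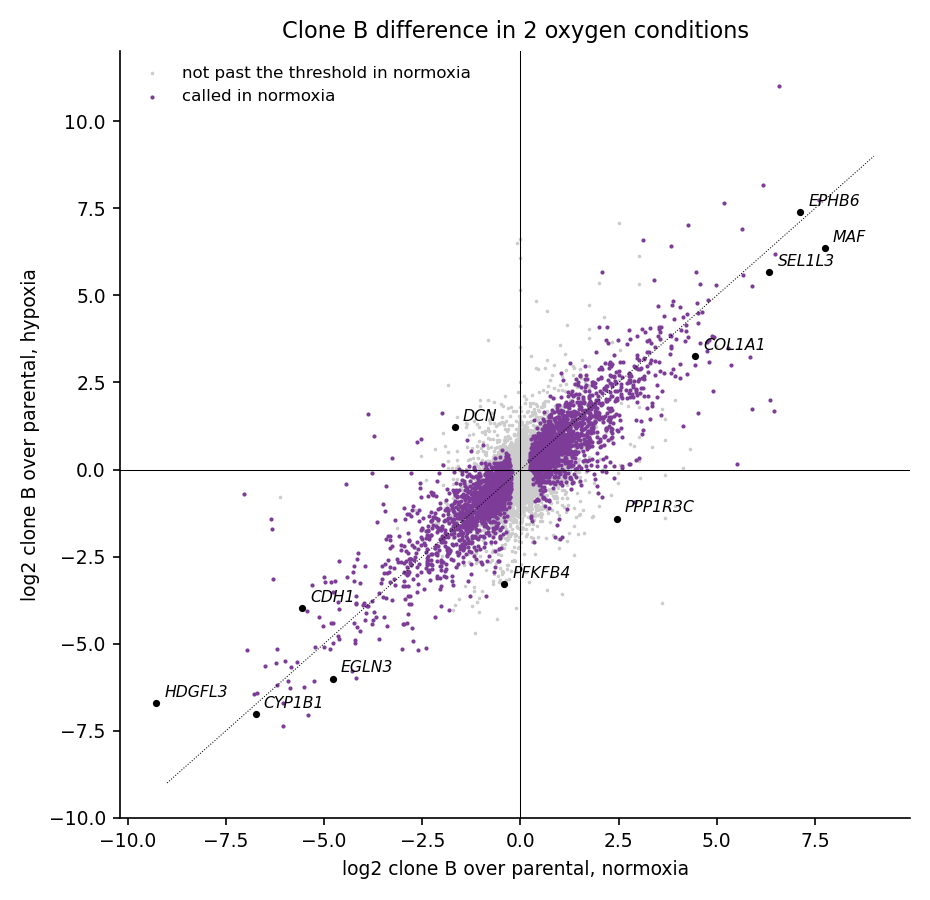
Log2 fold change of clone B over parental cells in hypoxia (vertical) and in normoxia (horizontal) for all 13943 tested genes, purple where called in normoxia; the dotted line marks equal values. CYP1B1, EPHB6 and SEL1L3 lie near the dotted line, while PPP1R3C (−1.41 in hypoxia and 2.45 in normoxia) lies in the quadrant of opposite signs.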

How the data were processed

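Gene counts of polyA RNA were deposited by the authors as 1 table for all 27 libraries. Reads were aligned with HISAT2 and counted with featureCounts on GRCh38, per the submitters' processing notes; the sources used here do not give versions, filters or the strand setting of the count, so overlapping and near-identical genes may exchange reads. The 6 libraries compared held 30168239 to 35271453 counts. Of 21487 gene IDs, 21479 matched a symbol in a gene-name table and 21409 had GENCODE v29 coordinates. In R 4.3.3, edgeR 4.0.16 fitted 9 groups over all 27 libraries (TMM, robust quasi-likelihood F test) after its expression filter (minimum count 10, minimum total 15), which left 13943 genes. A gene was called at p under 0.05 after Benjamini-Hochberg adjustment across every gene tested. Clone B against clone A and the difference between hypoxia and normoxia came from the same fit. The fit was tested on simulated data.

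CPM were scaled by TMM. Ratios of genes with 3 or fewer counts in a group carry a 95% interval, which covers counting error only. Genes named are the 20 largest called rises and falls with a mean of 5 CPM or more in either genotype and libraries that do not overlap, the 3 largest each way per gene list, partners of ARNT and AHR and clock genes, the 5 largest each way in the direct tests, and members of the 3 longest runs of neighbours. Members and lists were chosen with earlier results of these data known, and F2R, F2RL1, PMS2, RAC1, B2M and the genes that bound the other runs were chosen after their values were seen. The alternatives were DESeq2 1.42.0, RLE size factors, other filters, other sets of libraries, a replicate block and leaving out each library. Promoter sequences are from RefSeq (GRCh38.p14), and exon overlaps are from GENCODE v29. Figures were drawn with matplotlib 3.10.9 in Python 3.11.15.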

Additional observations from a re-analysis of the deposited data

Results flagged for a closer look

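The difference between clone B and parental cells was itself different in hypoxia at 660 genes, and clone B differed from clone A in normoxia at 3002 genes, each by a test of that difference (edgeR, adjusted p under 0.05). The named genes with the largest values follow.

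For hypoxia minus normoxia, the following values lay above 0. DCN, a small matrix proteoglycan, had a log2 difference of 2.90 (adjusted p = 0.0462), averaging 4.22 CPM in clone B and 1.81 CPM in parental cells in hypoxia and 1.78 CPM in clone B and 5.70 CPM in parental cells in normoxia. Its normoxia call (adjusted p = 0.0386) was lost under DESeq2 (0.0591), with no filter on low counts (0.0897) and without clone B library 1, 2 or 3 or parental library 1 or 3 (0.0687 to 0.145). HDGFL3 had 2.57 ± 0.64 (SE, adjusted p = 0.0182), a fitted value that rests on 14 counts in clone B and 1664 in parental cells in hypoxia and on 3 counts in clone B and 1943 in parental cells in normoxia. The BMP antagonist GREM1 had 2.22 ± 0.50 (adjusted p = 0.00722), averaging 8.86 CPM in clone B and 3.31 CPM in parental cells in hypoxia and 3.17 CPM in clone B and 5.53 CPM in parental cells in normoxia. LAMA3 had 1.74, averaging 0.516 CPM in clone B and 4.90 CPM in parental cells in hypoxia and 0.424 CPM in clone B and 13.3 CPM in parental cells in normoxia. The calcium channel CACNA1G had 1.66 (adjusted p = 0.00118), averaging 13.5 CPM in clone B and 8.22 CPM in parental cells in hypoxia and 5.19 CPM in clone B and 10.03 CPM in parental cells in normoxia.

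Other genes lay below 0. PFKFB4, a glycolytic regulator, had −2.86 (adjusted p = 6.34e-09), averaging 11.4 CPM in clone B and 111 CPM in parental cells in hypoxia. FAM13A had −2.84 and PPP1R3C −3.86. The natriuretic peptide receptor NPR3 had −3.01, and the G-protein subunit GNG4 also had −3.01.

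Between clones, the ETS factor ERG (5.38 ± 0.49), TRPV6 (5.08 ± 0.39), SHROOM3 (5.95 ± 0.40), GNG2 (7.22 ± 0.61) and GPRIN3 (7.92 ± 0.63) lay above clone A on the log2 scale (SE). Few clone A counts stand behind some of these values, so they are not ranked. GPRIN3 had 2 clone A counts, for a ratio of 288 (95% counting interval 79.3 to 2380), GNG2 had 4 and SHROOM3 had 10. SHROOM3 averaged 6.54 CPM in clone B, 0.0954 in clone A and 11.2 in parental cells. KLHL13 (−4.83), CYP1B1 (−4.36), the neurotrophin receptor NTRK2 (−4.29), SLITRK2 (−4.15) and the amino acid transporter SLC6A15 (−4.10) lay furthest below. KLHL13 averaged 1.12 CPM in clone B, 31.8 in clone A and 3.10 in parental cells.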

How the results depend on the processing

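Counts of calls depended on which libraries set the spread. Against 3697 genes (1839 higher, 1858 lower), the 6 libraries alone gave 5710 (2759, 2951), the 9 normoxia libraries 6165 (3026, 3139), and the 6 with a replicate block 6993 (3401, 3592), while 1444, 1464 and 1468 genes of at least 2-fold stood against 1462. The same 3 settings gave 6834, 5758 and 7026 genes for clone B against clone A (3002), and the libraries compared alone gave 2592 for hypoxia minus normoxia (660). ARNT was −0.167 (adjusted p = 0.0461), −0.164 (0.0275) and −0.166 (0.0190) in the 3 settings. DESeq2 gave 3927 calls, RLE size factors 3697, no filter 3499, a filter of 1 CPM in 3 libraries 3545, and counts off chromosome 15, chosen after seeing the data, 3390. Leaving out each library in turn gave 2974 to 3184 calls (1429 to 1595 higher, 1492 to 1607 lower, 1351 to 1395 at least 2-fold), 2176 to 2242 against clone A, 441 to 585 for hypoxia minus normoxia, and −0.19 to −0.12 for ARNT. Of 257 named genes called, 220 kept the call under every alternative and 0 changed sign. A replicate block in the 27-library fit gave 3791 calls. Deviations of same-numbered libraries correlated at −0.02, 0.37 and 0.37 for replicates 1, 2 and 3. Clone B replicate 2 was at −0.34 with parental replicate 3, and clone B replicate 3 at −0.40 with parental replicate 2. Clone B replicate 1 lay between −0.03 and 0.04 with every parental library, so these values cannot decide whether numbers mark pairs. No label says that they do, and numbers were not taken as pairs.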
